A study of Arabidopsis thaliana with 15 samples.

Results

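The 4 vacuolar processing enzyme genes of Arabidopsis thaliana and the aspartic protease gene APA1 were followed over 5 genotypes and 15 arrays. Members were taken by symbol from probe sets annotated to 1 gene, and each of the 5 had 1 probe set, among 13350 genes and 13513 such probe sets, with 22746 tested in all. They were GAMMA-VPE (AT4G32940, probe set 253358_at), BETA-VPE (AT1G62710, 262644_at), APA1 (AT1G11910, 264344_at), ALPHA-VPE (AT2G25940, 266849_at) and DELTA-VPE (AT3G20210, 257130_at). Each level therefore rests on 1 probe set, with no second probe set of the same gene to set beside it.

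RNA came from rosette leaves of plants 4 weeks old, accession Columbia, raised on soil with 8 h of light and 16 h of dark a day, with 3 biological replicates per genotype. The double knockout nhx5-1/nhx6-1 combined a WiscDsLox insertion in NHX5 with a SALK insertion in NHX6. The double knockout nhx5-2/nhx6-2 combined a GABI allele of NHX5 with a different SALK allele of NHX6, and the single knockouts nhx5-2 and nhx6-2 carried 1 of these 2 alleles each. Wild type (WT) was the control. Each genotype is 1 line, and NHX5 and NHX6, whose transcripts would check the labels, had no probe set in the annotation and are not analysed here. NHX5 and NHX6 exchange sodium or potassium ions for protons across endosomal membranes, and the comparisons ask how transcripts changed when 1 or both were lost.

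Vacuolar processing enzymes are cysteine proteases of the legumain family, which cut proteins after asparagine and, less often, aspartate. They are made as inactive precursors, travel through the endomembrane system to the vacuole and mature themselves in acid surroundings, after which they cut other vacuolar precursors into their mature forms. GAMMA-VPE and ALPHA-VPE are known as the enzymes of vegetative organs, BETA-VPE as the main enzyme of seeds, where it processes storage proteins, and DELTA-VPE as an enzyme of the developing seed coat. GAMMA-VPE is also known for a caspase-like activity in plant cell death. APA1 codes for a vacuolar aspartic protease of the phytepsin type.

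Values are the authors' scores on a log-like scale centred near 0 on each array, with no log base stated. Spike-in RNAs of assumed nominal concentration gained 0.681 units a doubling (SD 0.0281 among the 15 arrays). At that slope 1 unit equals about 2.77-fold, and the fold values below use it. It comes from bright spike-ins and need not hold for dim probe sets. The 3′ minus 5′ signal of actin and GAPDH control probe sets, a measure of RNA quality, ran from 2.27 to 2.40 units in nhx5-1/nhx6-1 and from 1.75 to 2.14 in nhx5-2/nhx6-2, against 1.45 to 1.69 over both single knockouts and 1.79 to 1.97 in WT. Arrays nhx5-1/nhx6-1 replicate 3 and nhx5-2 replicate 1 had the lowest spread of values, with SDs of 0.762 and 0.797 against 0.876 to 0.893 on the other 13. Mean spike-in signal was highest on WT replicates 1 and 3 and nhx6-2 replicate 3, at 2.75 to 2.84 units against 2.25 to 2.51 on the other 12. The part of these features in the results was not tested beyond the values given below.

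GAMMA-VPE was higher on the arrays of both double knockouts than on those of the other genotypes. It stood at 2.02, 2.26 and 1.84 units in nhx5-1/nhx6-1 replicates 1, 2 and 3 and at 2.29, 2.34 and 2.098 in nhx5-2/nhx6-2. The values were 1.63, 1.62 and 1.64 in nhx5-2, 1.62, 1.11 and 1.53 in nhx6-2 and 1.28, 1.71 and 1.25 in WT. All 6 double knockout arrays lay above all 9 others, the nearest pair being nhx5-1/nhx6-1 replicate 3 and WT replicate 2. The 3 nhx5-2 arrays lay within 0.03 units of each other, all above WT replicates 1 and 3 and below WT replicate 2. In leaf RNA, for this and every other gene, a change in transcript per cell and a change in the share of cells that carry it cannot be told apart.

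Against WT, GAMMA-VPE rose by 0.63 ± 0.14 units (SE of the limma model, n = 3 arrays per genotype) in nhx5-1/nhx6-1, about 1.89-fold with a 95% confidence interval of 1.38 to 2.60 and an adjusted p of 0.0124. In nhx5-2/nhx6-2 it rose by 0.83 ± 0.14 units, about 2.32-fold with an interval of 1.69 to 3.18 and an adjusted p of 0.00262. Neither single knockout passed the limma test, with differences of 0.22 units in nhx5-2 (interval −0.09 to 0.53) and 0.01 in nhx6-2 (−0.30 to 0.32). The nhx5-1/nhx6-1 call was lost without WT replicate 1 or 3, where the difference was 0.56 or 0.55 units and the limma adjusted p 0.0633 or 0.0639. It was also lost when each array's 3′ minus 5′ signal, highest in this line, entered the model (0.60 ± 0.29 units, limma adjusted p 0.620), when only the 2 genotypes were fitted (0.63 units, 0.0683) and with spike-in signal in the model (0.52 units, 0.0739). Set against WT replicate 2 alone, with the 3 arrays of highest spike-in signal left out (a choice made after seeing the data) and the lone array assumed to vary like the others, the differences were 0.33 and 0.53 units in nhx5-1/nhx6-1 and nhx5-2/nhx6-2, with limma adjusted p of 0.546 and 0.264.

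BETA-VPE, a gene best known from seeds, was measurable in these leaves and was also higher in both double knockouts. It stood at 0.32, 0.93 and 0.45 units in nhx5-1/nhx6-1 and at 0.52, 0.52 and 0.43 in nhx5-2/nhx6-2. It stood at 0.07, −0.05 and −0.14 in nhx5-2, −0.09, −0.24 and −0.04 in nhx6-2 and −0.11, −0.04 and −0.19 in WT. The 6 double knockout arrays again lay above the 9 others, with a wide gap between nhx5-1/nhx6-1 replicate 1 at 0.32 and nhx5-2 replicate 1 at 0.07. All 15 values lay above the level of control probe sets without a target, by 0.53 to 1.73 units over the median of those controls on the same array. The SD was 0.32 in nhx5-1/nhx6-1, where replicate 2 stood high, against 0.05 in nhx5-2/nhx6-2 and 0.07 in WT.

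The rise of BETA-VPE over WT was 0.68 ± 0.12 units in nhx5-1/nhx6-1, about 2.00-fold (95% interval 1.54 to 2.59, limma adjusted p 0.00248). It was 0.61 ± 0.12 units in nhx5-2/nhx6-2, about 1.85-fold (1.43 to 2.40, limma adjusted p 0.00531). The single knockouts differed from WT by 0.08 units in nhx5-2 (interval −0.18 to 0.33) and −0.01 in nhx6-2 (−0.27 to 0.25), and neither passed. No single array, when left out, ended either call for the double knockouts. Against WT replicate 2 alone, as above, the differences were 0.61 units in nhx5-1/nhx6-1 and 0.53 in nhx5-2/nhx6-2, with limma adjusted p of 0.148 and 0.253. In a model that also held each array's 3′ minus 5′ signal, the difference in nhx5-1/nhx6-1 was 0.77 ± 0.24 units and the limma adjusted p 0.283, and with only the 2 genotypes fitted it was 0.68 ± 0.15 units and 0.0526.

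**Figure D1:**
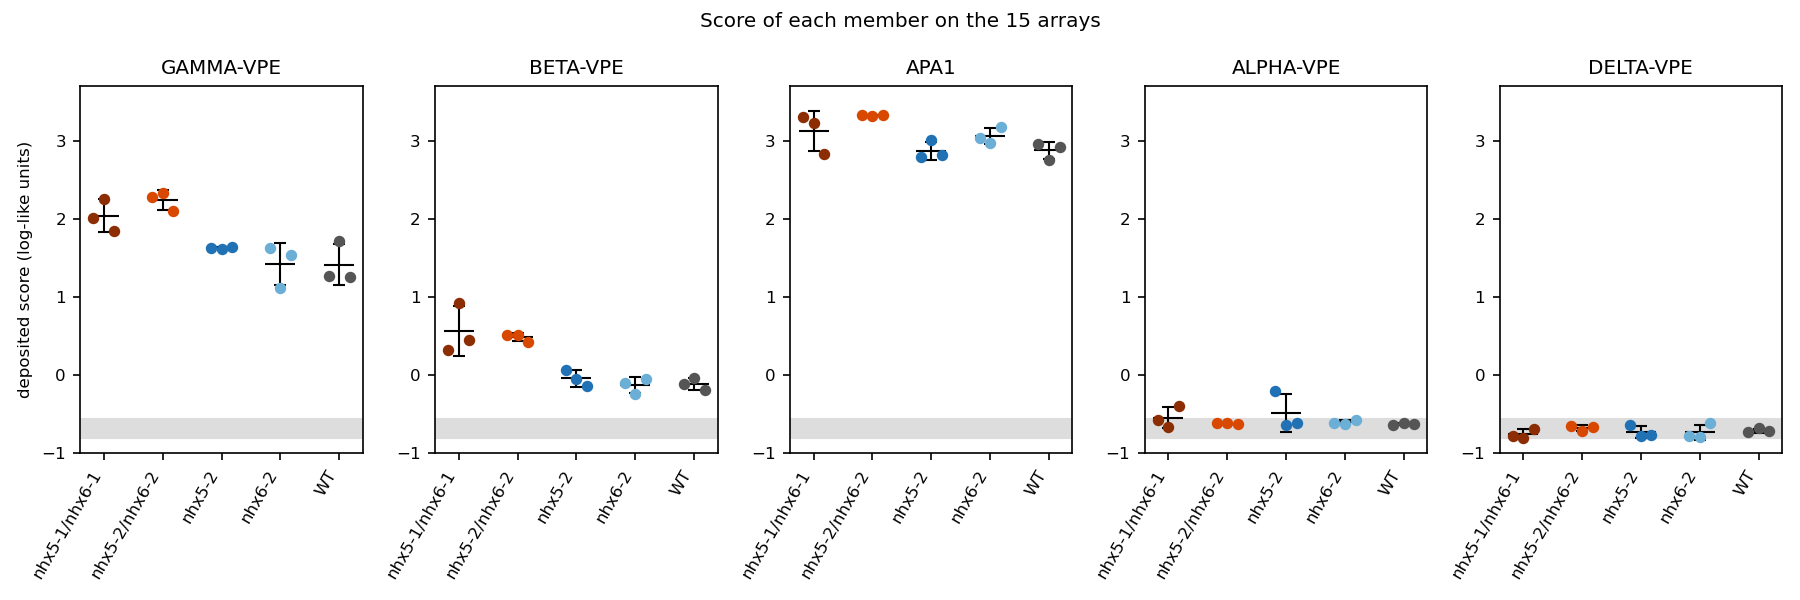
Deposited score (log-like units) of the 5 members on the 15 arrays, by genotype; points are arrays, replicates 1 to 3 from left to right, bars are mean ± SD (n = 3) and the grey band spans the per-array medians of control probe sets without a target, −0.81 to −0.57. GAMMA-VPE and BETA-VPE lie higher on all 6 double knockout arrays than on the other 9, and APA1 does so on 5 of 6. ALPHA-VPE and DELTA-VPE lie at or close to the band, except ALPHA-VPE on nhx5-2 replicate 1 (−0.21) and nhx5-1/nhx6-1 replicate 3 (−0.39).

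APA1 was high on the scale of its own probe set on every array and rose in 1 of the double knockouts. It stood at 3.31, 3.22 and 2.83 units in nhx5-1/nhx6-1 and at 3.32, 3.31 and 3.33 in nhx5-2/nhx6-2. It stood at 2.79, 3.00 and 2.82 in nhx5-2, 3.04, 2.98 and 3.18 in nhx6-2 and 2.96, 2.76 and 2.92 in WT. The nhx5-2/nhx6-2 arrays lay within 0.02 units of each other and above all arrays of the other 4 genotypes. In nhx5-1/nhx6-1, replicates 1 and 2 lay above the 9 arrays of WT and the single knockouts, while replicate 3, the array of lowest SD, lay within the WT range. The 3 nhx6-2 arrays lay above the 3 WT arrays, by a margin of 0.02 units between the nearest pair.

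In nhx5-2/nhx6-2, APA1 rose by 0.44 ± 0.11 units over WT, about 1.56-fold (95% interval 1.24 to 1.97, limma adjusted p 0.0169). The adjusted p was 0.064 without WT replicate 2 and 0.0611, 0.052 and 0.053 without mutant replicates 1, 2 and 3, with differences of 0.38 to 0.44 units, and 0.128 against WT replicate 2 alone, at 0.56 units. In nhx5-1/nhx6-1 the difference of 0.24 ± 0.11 units, about 1.27-fold (1.01 to 1.61), had a limma adjusted p of 0.18 and did not pass. Without replicate 3 of that line it was 0.38 units with a limma adjusted p of 0.00717. The single knockouts differed from WT by 0.18 units in nhx6-2 (interval −0.04 to 0.41) and −0.01 in nhx5-2 (−0.24 to 0.22), and neither passed.

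The value of APA1 in nhx5-1/nhx6-1 depended on how the arrays were brought to 1 scale. After quantile normalization nhx5-1/nhx6-1 stood at 3.33, 3.33 and 3.15 units and WT at 2.87, 2.76 and 2.85, a difference of 0.44 units with a limma adjusted p of 0.000391. With every array scaled to the same SD, an alternative chosen after seeing the data, nhx5-1/nhx6-1 stood at 3.29, 3.16 and 3.24 and WT at 2.92, 2.69 and 2.90, a difference of 0.39 units with a limma adjusted p of 0.00436. Under both scalings all 6 double knockout arrays lay above the 9 others for APA1. With every array shifted to 1 median instead, nhx5-1/nhx6-1 stood at 3.30, 3.20 and 2.75 units and WT at 2.98, 2.77 and 2.94. Replicate 3 of nhx5-1/nhx6-1 then lay below all WT arrays, and APA1 did not pass in that line. For nhx5-2/nhx6-2 the gene passed under each of these scalings.

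**Figure D2:**
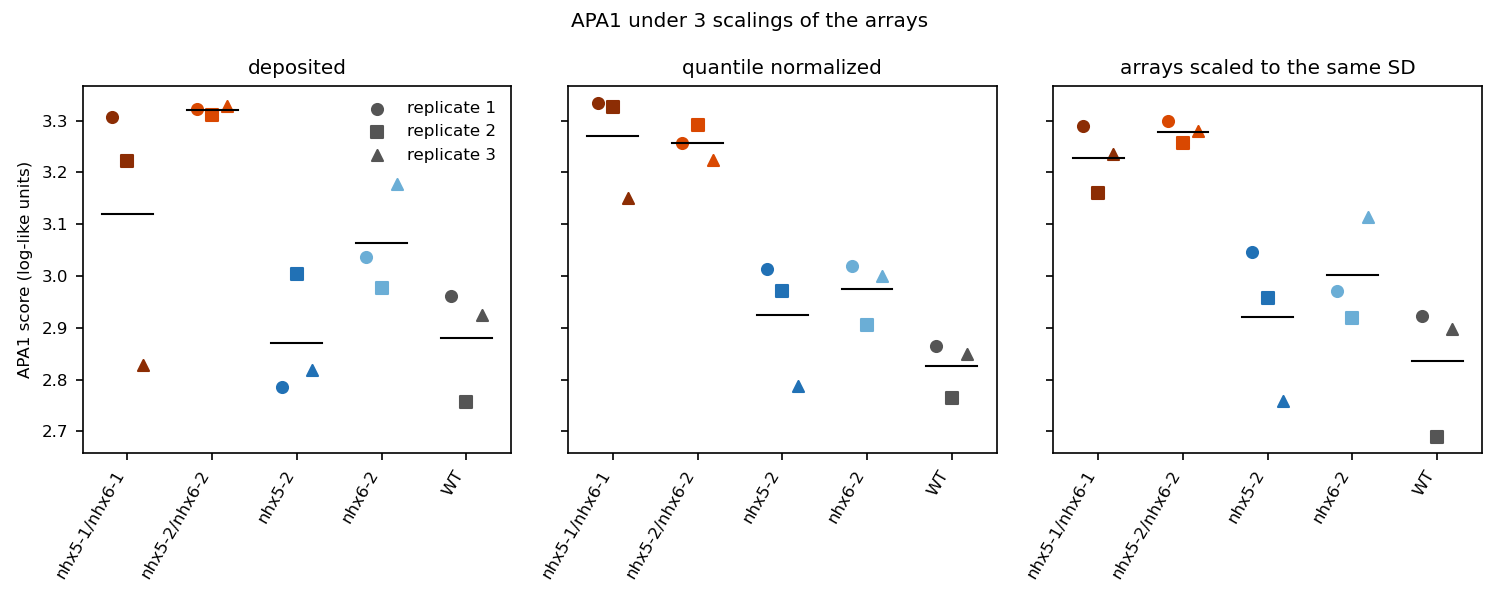
APA1 score (log-like units) on the 15 arrays as deposited, after quantile normalization and with every array scaled to the same SD; symbols mark replicates and lines are genotype means (n = 3). The triangle of nhx5-1/nhx6-1, replicate 3, lies at 2.83 as deposited, within the WT range, and at 3.15 and 3.24 under the other scalings shown, above all WT arrays. With arrays shifted to 1 median, not shown, this replicate lay at 2.75, below all WT arrays.

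ALPHA-VPE and DELTA-VPE gave little signal in these leaves. ALPHA-VPE ran from −0.66 to −0.39 units in nhx5-1/nhx6-1 and −0.63 to −0.61 in nhx5-2/nhx6-2, against −0.64 to −0.21 in nhx5-2, −0.62 to −0.58 in nhx6-2 and −0.64 to −0.61 in WT. It exceeded the 95th percentile of the 27 control probe sets without a target on 8 of 15 arrays. Its highest values, −0.21 and −0.39, fell on nhx5-2 replicate 1 and nhx5-1/nhx6-1 replicate 3, the arrays of lowest SD, whose no-target medians of −0.61 and −0.57 were also the highest of all. DELTA-VPE ran from −0.80 to −0.62 over all arrays, exceeded the 95th percentile on 1 of 15, nhx6-2 replicate 3, and its genotypes overlapped throughout. In nhx5-1/nhx6-1 and nhx5-2/nhx6-2 the differences from WT were 0.08 and 0.01 units for ALPHA-VPE and −0.04 and 0.03 for DELTA-VPE, and none passed the test. Near the no-target level such values bound the signal only and do not show that the transcripts did not change.

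Counted over the 5 members, 2 rose in nhx5-1/nhx6-1 and 3 in nhx5-2/nhx6-2, none fell, and none passed in either single knockout. Over all probe sets tested, 5.13% rose and 6.90% fell in nhx5-1/nhx6-1, 4.27% rose and 5.54% fell in nhx5-2/nhx6-2, and 0.0659% and 0.290% changed in nhx5-2 and nhx6-2. The 3 mutant arrays lay above the 3 WT arrays for 2 members in nhx5-1/nhx6-1, 3 in nhx5-2/nhx6-2, 0 in nhx5-2 and 1, APA1, in nhx6-2, where 11.1%, 16.4%, 5.15% and 5.90% of all probe sets did so. The median difference of the 5 members from WT was 0.24 units in nhx5-1/nhx6-1 and 0.44 in nhx5-2/nhx6-2, beside medians of 0.0061 and 0.0005 over all probe sets. In the mean of both double knockouts minus WT, 3 members rose, where 5.81% of all probe sets did: GAMMA-VPE by 0.73, BETA-VPE by 0.64 and APA1 by 0.34 units. That call for APA1 was lost without WT replicate 1, 2 or 3, at 0.38, 0.28 and 0.36 units and limma adjusted p of 0.0531, 0.116 and 0.0708, with arrays shifted to 1 median (0.31 units, 0.0677) and with only the genotypes compared (0.34 units, 0.0534). With the 3′ minus 5′ signal in the model, calls in this mean fell from 3024 to 429 over all 22746 probe sets. All 3 member calls were among those lost, at 0.71 ± 0.20, 0.70 ± 0.16 and 0.37 ± 0.15 units for GAMMA-VPE, BETA-VPE and APA1 and limma adjusted p of 0.101, 0.0518 and 0.288. In nhx5-1/nhx6-1 minus WT, where the ranges of that signal did not overlap, calls fell from 2736 to 24 with it in the model. In nhx5-2/nhx6-2 minus WT they fell from 2232 to 1571, and the 3 members still passed. Against WT replicate 2 alone, as above, the differences of the 3 members in the mean of both double knockouts were 0.43, 0.57 and 0.46 units. All these comparisons share the same 3 WT arrays.

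**Figure D3:**
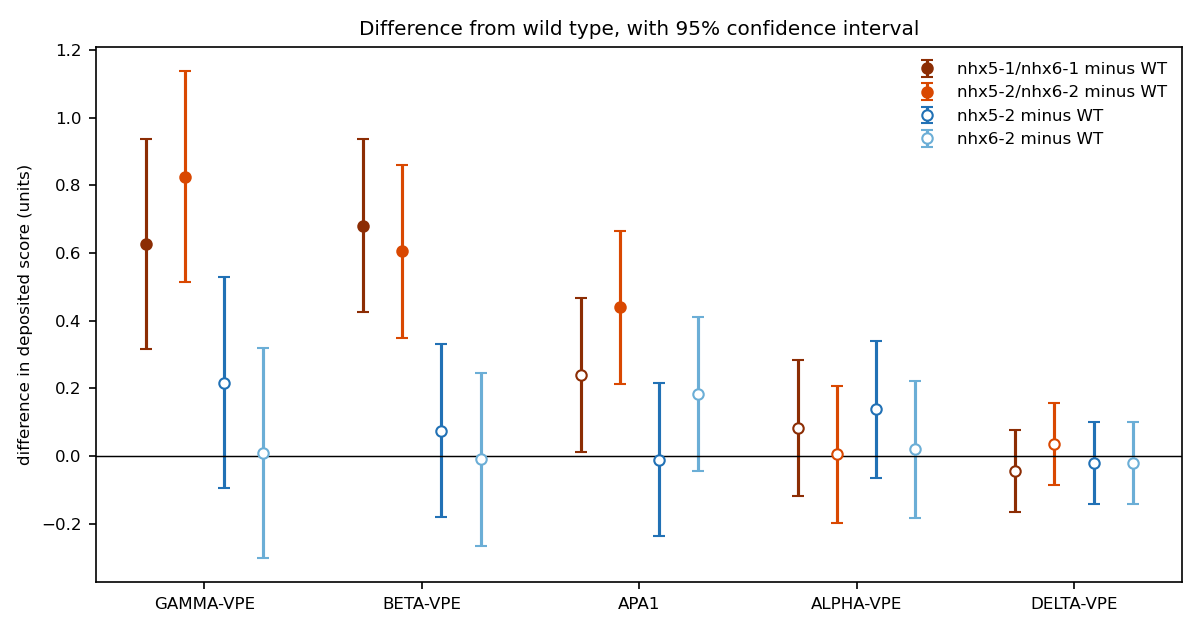
Difference of each member from WT (units of deposited score) in the 4 knockout genotypes, with 95% confidence intervals of the limma model fitted to all 15 arrays; filled points passed an adjusted p of 0.05 and open points did not. GAMMA-VPE and BETA-VPE passed in both double knockouts at 0.61 to 0.83 units, APA1 in nhx5-2/nhx6-2 at 0.44, and no single knockout point passed.

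Loss of both antiporters was also compared directly with loss of 1, using the line that shares its alleles with the single knockouts. GAMMA-VPE was higher in nhx5-2/nhx6-2 than in nhx5-2 by 0.61 ± 0.14 units (limma adjusted p 0.0263) and than in nhx6-2 by 0.82 ± 0.14 (0.00829). BETA-VPE was higher by 0.53 ± 0.12 units than in nhx5-2 (limma adjusted p 0.0201) and by 0.61 ± 0.12 than in nhx6-2 (0.0134). APA1 was higher than in nhx5-2 by 0.45 ± 0.11 (limma adjusted p 0.0249), whereas its difference of 0.26 ± 0.11 from nhx6-2 did not pass (0.231). Thus 3 members were higher than in nhx5-2 and 2 than in nhx6-2, where 2.76% and 1.97% of all probe sets were.

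With the 3′ minus 5′ signal in the model none of these 5 calls was kept. Over all 22746 probe sets, calls in either direction fell from 1239 to 1 against nhx5-2 and from 933 to 9 against nhx6-2. The 3′ minus 5′ signal averaged 1.98 units in nhx5-2/nhx6-2 (1.75 to 2.14), against 1.51 in nhx5-2 (1.45 to 1.57) and 1.61 in nhx6-2 (1.55 to 1.69). As these ranges did not overlap, the fit could hardly separate genotype from this signal. Against nhx5-2 the differences were then 0.59 ± 0.28, 0.62 ± 0.23 and 0.49 ± 0.21 units for GAMMA-VPE, BETA-VPE and APA1 (limma adjusted p 0.990, 0.914 and 0.981). Against nhx6-2 they were 0.80 ± 0.24 and 0.68 ± 0.20 units for GAMMA-VPE and BETA-VPE (0.444 and 0.421). Leaving out 1 array also ended each of the 5 calls in at least 1 case. Against nhx5-2, GAMMA-VPE had limma adjusted p of 0.0675, 0.0765 and 0.0741 without nhx5-2 replicates 1, 2 and 3 and of 0.107 and 0.0965 without nhx5-2/nhx6-2 replicates 1 and 2, with differences of 0.56 to 0.62 units. BETA-VPE had 0.0638 and 0.08 without nhx5-2 replicates 2 and 3 and 0.0866, 0.0697 and 0.0509 without nhx5-2/nhx6-2 replicates 1, 2 and 3, with differences of 0.48 to 0.56 units. APA1 had 0.0827 and 0.0852 without nhx5-2 replicates 1 and 3 and 0.0931, 0.0716 and 0.0807 without nhx5-2/nhx6-2 replicates 1, 2 and 3, at 0.41 to 0.46 units. Against nhx6-2, GAMMA-VPE had 0.0507 without nhx5-2/nhx6-2 replicate 1 (0.79 units), and BETA-VPE had 0.0778 without nhx6-2 replicate 2 (0.56 units) and 0.0701 and 0.0529 without nhx5-2/nhx6-2 replicates 1 and 2 (0.60 units each). In the other direction, the difference of APA1 from nhx6-2 passed without nhx5-1/nhx6-1 replicate 3, at 0.26 units and a limma adjusted p of 0.0449, and after quantile normalization, at 0.28 units and 0.0166. With array weights, without the 2 arrays of lowest SD and with only the 2 genotypes fitted it passed as well. Over all probe sets, the 933 calls against nhx6-2 became 1726, 1725, 4487, 2399 and 1438 in these settings, in that order.

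The double knockout exceeded the sum of the single knockout effects for GAMMA-VPE, BETA-VPE and APA1 in the estimates, but not past the threshold. The non-additive effect, nhx5-2/nhx6-2 minus nhx5-2 minus nhx6-2 plus WT, was 0.60 ± 0.20 units for GAMMA-VPE (95% interval 0.16 to 1.04, limma adjusted p 0.295). It was 0.54 ± 0.17 for BETA-VPE (0.18 to 0.90, adjusted p 0.242 in limma) and 0.27 ± 0.15 for APA1 (−0.05 to 0.59, adjusted p 0.626 in limma). For BETA-VPE it passed when only the 4 genotypes of this contrast were fitted, with the same 0.54 units and a limma adjusted p of 0.0261, and without nhx5-1/nhx6-1 replicate 2, which changes the estimated spread only (0.0314). With array weights it passed for GAMMA-VPE, BETA-VPE and APA1, at 0.52, 0.59 and 0.29 units and limma adjusted p of 0.0470, 0.0113 and 0.0356. In the main fit 22 of all 22746 probe sets, 0.0967%, passed for this effect. With array weights 2665 passed, with only these 4 genotypes fitted 254, and without nhx5-1/nhx6-1 replicate 2 there were 144.

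The double knockout lines differed from each other by less than the spread could resolve. For nhx5-1/nhx6-1 minus nhx5-2/nhx6-2 the difference was −0.20 units for GAMMA-VPE (95% interval −0.51 to 0.11), 0.08 for BETA-VPE (−0.18 to 0.33) and −0.20 for APA1 (−0.43 to 0.03), and none passed. The share of all probe sets that did was 0.378%. After quantile normalization the APA1 difference was 0.01 units.

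The 6 double knockout arrays were then set against the 9 arrays of WT and both single knockouts, a mixed group, with an exact two-sided permutation test over arrays, p adjusted over the 5 members. The 6 arrays came from nhx5-1/nhx6-1 and nhx5-2/nhx6-2 only, and the test counts replicates of the same line as independent. Its p-values therefore do not measure the spread between double knockout lines. GAMMA-VPE averaged 2.14 ± 0.19 units on the double knockout arrays (SD, n = 6) and 1.49 ± 0.22 on the others (SD, n = 9), with an exact p of 0.0002, the smallest that the 5005 arrangements can give, and an adjusted exact p of 0.0005. BETA-VPE averaged 0.53 ± 0.21 and −0.09 ± 0.09 units, with the same exact p values. APA1 averaged 3.22 ± 0.20 and 2.94 ± 0.13 units, with an exact p of 0.00879, 0.0147 after adjustment, and 5 of 6 double knockout arrays above all others. ALPHA-VPE (−0.58 and −0.57 units) and DELTA-VPE (−0.71 and −0.72) had exact p of 0.88 and 0.803. No overlap, in this direction, was found for 2.15% of all probe sets. GAMMA-VPE and BETA-VPE also passed in each double knockout separately, as did 2.30% of all probe sets with rises.

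Correlations between members were computed within the double knockout arrays and within the other arrays, and none passed after adjustment. GAMMA-VPE and BETA-VPE correlated at r = 0.50 (rho 0.60, exact permutation p 0.321 and 0.242) over the 6 double knockout arrays. Over the 9 other arrays they correlated at r = 0.74 (rho 0.65, exact permutation p 0.0193 and 0.0666). Without the 2 arrays farthest from the median of GAMMA-VPE, r was 0.28 over the double knockout arrays and 0.31 over the others. Leaving them out narrows the range of GAMMA-VPE, so it cannot show whether r rested on them. The exact permutation p of the r of 0.74 was 0.116 when adjusted over the 6 relations computed. GAMMA-VPE and APA1 correlated at r = 0.72 over the double knockout arrays (rho 0.49, exact permutation p 0.0889 and 0.356). Over the 9 others they correlated at −0.28 (rho −0.50, exact permutation p 0.465 and 0.178). Without the 2 farthest arrays these r were −0.22 and −0.38, with the same limit. BETA-VPE and APA1 correlated at 0.01 and −0.19 (rho −0.14 and −0.18, exact permutation p 0.951 and 0.625 for r and 0.803 and 0.644 for rho). Without the 2 arrays farthest from the median of BETA-VPE these r were 0.43 and 0.25. WT replicate 2 was the highest WT array for GAMMA-VPE and BETA-VPE and the lowest for APA1.

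The transcripts most like each member were ranked by Pearson r over the 15 arrays, as a description; the arrays share their genotypes. GAMMA-VPE was most like AT1G22160 (r = 0.96), AT5G43150 (0.96), AT1G68600 (0.95), AT1G22930 (0.95) and AT5G02230 (0.95). BETA-VPE was most like AT3G14360 (0.97), HIS1-3, a linker histone gene known to be induced by drought (0.96), AT1G22930 (0.95), AT2G21180 (0.95) and SIS, named as a salt induced serine rich gene (0.95). APA1 was most like AT4G11570 (0.93), AT1G73920 (0.92), AT3G26580 (0.90), AT1G78280 (0.89) and AT5G39570 (0.89). AT1G22930 was the single transcript on 2 of these lists. BETA-VPE ranked 58th for GAMMA-VPE, at r = 0.90, while APA1 ranked 958th, at 0.64. With each genotype's mean removed, r was 0.63 between GAMMA-VPE and BETA-VPE and 0.18 between GAMMA-VPE and APA1.

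Other proteases and inhibitors of the vacuole and secretory pathway were described from 9 lists, of whose 123 genes 35 had a probe set with 1 gene. Loci without a name in the annotation are given by their identifier. Over all 22746 probe sets, 5.13% rose and 6.90% fell in nhx5-1/nhx6-1 (median 0.0061 units), and 4.27% rose and 5.54% fell in nhx5-2/nhx6-2 (median 0.0005). With every array shifted to 1 median, 629 probe sets rose and 1994 fell in nhx5-1/nhx6-1, and 780 rose and 1060 fell in nhx5-2/nhx6-2. Among papain-type cysteine proteases, 8 of 18 were measured, of which 2 rose in nhx5-1/nhx6-1 and 4 in nhx5-2/nhx6-2 and none fell, with list medians of 0.16 and 0.17 units. AT4G16190 rose by 0.67 and 1.13 units and AT1G02300 by 0.58 and 0.52 units in nhx5-1/nhx6-1 and nhx5-2/nhx6-2. AT4G01610 and AT1G02305 rose by 0.87 and 0.36 units in nhx5-2/nhx6-2, while their differences of 0.26 and 0.21 units in nhx5-1/nhx6-1 did not pass. With every array shifted to 1 median, 2 and 3 passed. The 4 that did not pass in either line lay within 0.12 units of WT, and 3 of them were not above the no-target level.

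Of 5 protease inhibitors measured out of 11, none fell, 2 rose in nhx5-1/nhx6-1 and 4 in nhx5-2/nhx6-2, with medians of 0.24 and 0.39 units. The serpin gene SERPIN1, which codes for an inhibitor of proteases, rose by 0.24 and 0.35 units and AT5G05110 by 0.29 and 0.39 units in nhx5-1/nhx6-1 and nhx5-2/nhx6-2. AT5G47550 rose by 0.74 units in nhx5-2/nhx6-2 and its difference of 0.36 in nhx5-1/nhx6-1 did not pass. With every array shifted to 1 median, none of the 5 passed in nhx5-1/nhx6-1 and 4 did in nhx5-2/nhx6-2.

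Aspartic proteases and serine carboxypeptidases gave other counts. Of 5 measured aspartic proteases besides APA1, out of 9, none rose, 2 fell in nhx5-1/nhx6-1 and 1 in nhx5-2/nhx6-2, with medians of −0.06 and −0.12 units. AT1G09750 fell by 0.56 and 0.92 units in nhx5-1/nhx6-1 and nhx5-2/nhx6-2, and AT1G62290 fell by 0.32 units in nhx5-1/nhx6-1 alone, its difference of −0.10 in nhx5-2/nhx6-2 not passing. Serine carboxypeptidases, with 9 of 13 measured, split into 1 higher and 1 lower in nhx5-1/nhx6-1 and 2 higher and 2 lower in nhx5-2/nhx6-2. Among them SCPL20 rose by 0.23 units in both lines, and SCPL48 fell by 0.49 and 0.32 units. With every array shifted to 1 median the split was 0 higher and 2 lower, and 1 higher and 1 lower. SCPL49 rose by 0.34 units in nhx5-2/nhx6-2, and its difference of 0.27 in nhx5-1/nhx6-1 did not pass.

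Remaining lists were thinly measured. Of 13 vacuolar membrane and substrate genes, 1 was measured, AT1G62660, which was higher by 1.01 units in nhx5-1/nhx6-1, past the test, and differed by 0.70 units in nhx5-2/nhx6-2 without passing, and passed in neither with every array shifted to 1 median; its arrays spread from 0.27 to 1.70 and from 0.44 to 1.07 units. Of 18 senescence and cell death genes, 4 were measured, and ATG8A, which codes for a ubiquitin-like protein of autophagy, rose by 0.40 and 0.56 units, while the other 3 did not pass, at −0.07 to 0.05 units. The list of vacuolar sorting genes had 1 measured of 22, at 0.10 and −0.05 units and not past the test, and seed storage proteins had 2 of 10, at the no-target level. Metacaspases had 0 of 9. None of the genes on these lists passed in nhx5-2 or nhx6-2, where 0.0659% and 0.290% of all probe sets did.

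**Figure D4:**
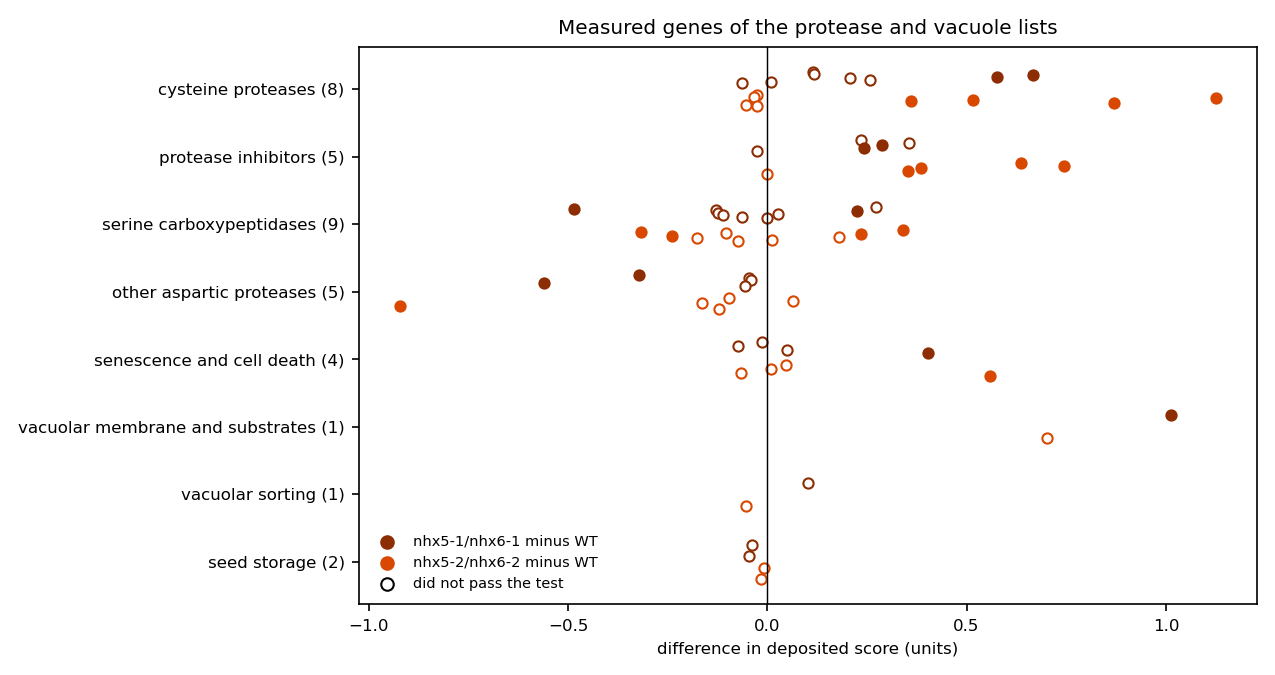
Difference from WT (units of deposited score) of the measured genes of 8 lists in the 2 double knockout lines; each point is 1 gene, filled where it passed an adjusted p of 0.05, and the number of measured genes stands beside the list. Points of papain-type cysteine proteases and protease inhibitors that passed lie at 0.24 to 1.13 units, and those of the other aspartic proteases at −0.92 to −0.32.

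Markers of leaf and of other tissues were few on the annotated part of the array. RCA, the Rubisco activase gene of photosynthetic cells, was the single mesophyll marker measured of 12 and stood at 4.99 to 5.30 units in nhx5-1/nhx6-1, 5.23 to 5.64 in nhx5-2/nhx6-2, 4.97 to 5.71 over the single knockouts and 4.96 to 5.67 in WT. The seed marker measured, PAP85, 1 of 10, stayed at the no-target level on average, from −0.67 to −0.55 over all arrays. FAMA and SPCH of 7 guard cell markers and EXPA7 of 8 root markers did not pass in any knockout. SPCH, at −0.64 units on average, was not above the no-target level. TRY, a repressor in trichome patterning and the 1 measured of 4 trichome markers, stood at 0.29 to 0.31 units in nhx5-1/nhx6-1 and 0.24 to 0.30 in nhx5-2/nhx6-2, against 0.55 to 0.67 in WT, and fell in both lines. No flower (of 7) or vascular marker (of 8) was measured.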

How the data were processed

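For 15 Affymetrix arrays the authors deposited scores, 1 for each probe set on each array; per the labels' protocols, biotin-labelled RNA was made from 6 µg of total RNA. No source used here states the background correction, summarization or log base; the deposited score was log-like and was used untransformed. Control probe sets (64) entered no test. Annotation gave 13513 probe sets 1 gene, 503 several, and did not list 8730; 13436 matched the TAIR10.1 gene table, used for names only. Limma 3.58.1 (R 4.3.3; lmFit, eBayes, 1 mean per genotype) was fitted to 22746 probe sets on 15 arrays, with Benjamini-Hochberg adjustment over all of them and a threshold of 0.05. "Rose", "fell" and "passed" refer to that threshold. The procedure was tested on simulated data. From each list up to 4 genes that passed in the mean of both double knockouts, by smallest p, were named, and 5 per member for likeness. Members, lists and comparisons were chosen with earlier results of these data known. The number of arrays limits precision; the smallest exact p for 3 against 3 is 0.1. Limma p-values rest on the spread between biological replicates. The exact tests treated arrays of different genotypes as exchangeable, with genotype means left in, so their p-values also hold differences between genotypes. Replicate numbers did not pair samples: deviations from genotype means correlated at a median of −0.048 over 30 same-number pairs, 6 of them above 0.1. Alternatives were scaling, filtering, weights, covariates, the replicate number as a block and arrays left out. Exact tests used Python 3.11.15 and numpy 2.4.6. The planned description of promoters and proteins was not run; their sequences are not used here.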

Additional observations from a re-analysis of the deposited data

How the results depend on the processing

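Over 1306 recomputed values, 1186 kept direction and side of the threshold, 51 lost a call, 16 gained one and 53 changed sign, every sign change on a difference that had not passed. The replicate block changed no call (mean of both double knockouts minus WT for GAMMA-VPE 0.73 units); trend and robust settings changed none, and the filter on low values none of 36, with DELTA-VPE removed. The number of arrays and the no-target level, for ALPHA-VPE and DELTA-VPE, limit what can be resolved. Except where construction shows it (fewer arrays), the cause was not tested. Differences below are in units of score.

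With the 3′ minus 5′ signal in the model, calls were lost for GAMMA-VPE and BETA-VPE in nhx5-1/nhx6-1 minus WT (0.60, 0.77), for GAMMA-VPE, BETA-VPE and APA1 in the mean of both double knockouts minus WT (0.71, 0.70, 0.37) and in nhx5-2/nhx6-2 minus nhx5-2 (0.59, 0.62, 0.49), and for GAMMA-VPE and BETA-VPE in nhx5-2/nhx6-2 minus nhx6-2 (0.80, 0.68). Over all 22746 probe sets, calls in these comparisons fell to 24, 429, 1 and 9, in that order. The range of this signal in nhx5-1/nhx6-1 did not overlap that in WT, nor did its range in nhx5-2/nhx6-2 overlap those in the single knockouts. DELTA-VPE changed sign in nhx5-2 and nhx6-2 minus WT (0.081, 0.050), nhx5-2/nhx6-2 minus nhx5-2 and minus nhx6-2 (−0.078, −0.047) and the non-additive effect (−0.13), and ALPHA-VPE in nhx5-2/nhx6-2 minus WT (−0.0064). With mean spike-in signal in the model, chosen after seeing the data, GAMMA-VPE lost its call in nhx5-1/nhx6-1 minus WT (0.52), and signs changed in nhx5-2 minus WT for APA1 and DELTA-VPE (0.10, 0.013), nhx6-2 minus WT for GAMMA-VPE (−0.043), nhx5-2/nhx6-2 minus WT for ALPHA-VPE (−0.0070) and the mean of both double knockouts for DELTA-VPE (0.021). Without the 3 arrays of highest spike-in signal, which leaves 1 WT array, calls were lost in nhx5-2/nhx6-2 minus WT for GAMMA-VPE, BETA-VPE and APA1 (0.53, 0.53, 0.56), nhx5-1/nhx6-1 minus WT for GAMMA-VPE and BETA-VPE (0.33, 0.61) and the mean of both for GAMMA-VPE, BETA-VPE and APA1 (0.43, 0.57, 0.46). Signs changed there in nhx5-2 minus WT for GAMMA-VPE and APA1 (−0.082, 0.11), nhx6-2 minus WT for GAMMA-VPE and ALPHA-VPE (−0.34, −0.0064) and nhx5-2/nhx6-2 minus WT for ALPHA-VPE (−0.0074).

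APA1 gained a call in nhx5-1/nhx6-1 minus WT after quantile normalization (0.44), with every array scaled to the same SD (0.39), with array weights (0.35) and without the 2 arrays of lowest SD (0.38). It gained one in nhx5-2/nhx6-2 minus nhx6-2 after quantile normalization (0.28), with array weights (0.29), without the 2 arrays of lowest SD (0.26) and with only the genotypes compared (0.26). Array weights also gained calls for DELTA-VPE in nhx5-2/nhx6-2 minus nhx5-2 (0.10) and for GAMMA-VPE, BETA-VPE and APA1 in the non-additive effect (0.52, 0.59, 0.29), and turned BETA-VPE in nhx5-1/nhx6-1 minus nhx5-2/nhx6-2 (−0.058). Over all 22746 probe sets, array weights raised calls from 2736 to 6955 in nhx5-1/nhx6-1 minus WT and from 933 to 4487 in nhx5-2/nhx6-2 minus nhx6-2. In nhx5-2/nhx6-2 minus nhx5-2 they raised calls from 1239 to 5116, and in the non-additive effect from 22 to 2665. DELTA-VPE exceeded the 95th percentile of the no-target controls on 1 of 15 arrays. With only the genotypes compared, BETA-VPE passed for the non-additive effect (0.54), and calls were lost for GAMMA-VPE and BETA-VPE in nhx5-1/nhx6-1 minus WT (0.63, 0.68) and APA1 in the mean of both (0.34). With arrays shifted to 1 median, APA1 lost its call in that mean (0.31). APA1 in nhx5-2 minus WT turned positive after quantile normalization (0.10), at equal SD (0.084) and without the 2 arrays of lowest SD (0.031); without those arrays ALPHA-VPE turned in nhx5-2 minus WT (−0.0015) and nhx5-2/nhx6-2 minus nhx5-2 (0.0067). After quantile normalization GAMMA-VPE turned in nhx6-2 minus WT (−0.0072) and APA1 in nhx5-1/nhx6-1 minus nhx5-2/nhx6-2 (0.013). DELTA-VPE turned between the 6 double knockout and 9 other arrays with arrays shifted to 1 median (−0.0056) and at equal SD (−0.0056).

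Leaving out each array in turn moved these results. Against WT, nhx5-2 gave −0.078 to 0.031 for APA1, −0.0015 to 0.22 for ALPHA-VPE and −0.064 to 0.0080 for DELTA-VPE, and nhx6-2 gave −0.091 to 0.16 for GAMMA-VPE, −0.050 to 0.047 for BETA-VPE and −0.077 to 0.011 for DELTA-VPE. Minus WT, nhx5-2/nhx6-2 gave 0.38 to 0.48 for APA1 and −0.0018 to 0.011 for ALPHA-VPE, nhx5-1/nhx6-1 gave 0.52 to 0.78 for GAMMA-VPE and 0.14 to 0.38 for APA1, and their mean 0.28 to 0.41 for APA1 and −0.023 to 0.010 for DELTA-VPE. BETA-VPE ran from −0.11 to 0.20 in nhx5-1/nhx6-1 minus nhx5-2/nhx6-2. For nhx5-2/nhx6-2 minus nhx5-2 the ranges were 0.56 to 0.68 for GAMMA-VPE, 0.48 to 0.59 for BETA-VPE, 0.41 to 0.52 for APA1 and −0.21 to 0.0067 for ALPHA-VPE, and minus nhx6-2 they were 0.66 to 0.92, 0.56 to 0.66 and 0.21 to 0.31 for GAMMA-VPE, BETA-VPE and APA1. The non-additive effect of BETA-VPE ran from 0.48 to 0.60. Between the 6 double knockout and 9 other arrays ALPHA-VPE ran from −0.047 to 0.037 and DELTA-VPE from −0.0047 to 0.026.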
